A study of Mus musculus with 10 samples.

Results

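The chromatin occupancy of R mutant Dnmt3a2 was compared with that of WT Dnmt3a2 at 3 sets of H3K4 methylation regions in mouse embryonic stem cells. All 4 Dnmt3a2 samples labelled WT or R were taken, out of 10 samples in the series, and all 85618 regions of the 3 deposited tables were kept. Each table carried a single R column and a single WT column. The labels list 2 samples for each construct, one titled with the number 1 and one titled bulk, and the column names did not say which of them a column held. The comparison therefore had no replicate check, no test between constructs was possible, and all values are descriptive.

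Dnmt3a2 is the short isoform of Dnmt3a, an enzyme that places new methyl groups on cytosines in DNA and that is the main Dnmt3a form in embryonic stem cells. Its ADD domain binds the tail of histone H3 when lysine 4 carries no methyl group, and H3K4me3, the mark of active promoters, weakens that contact. H3K4me1 typically marks enhancers, and H3K4me2 is found at both enhancers and promoters. The series title states that a histone recognition domain of Dnmt3a was engineered. The labels call the mutant only R and do not give its substitution.

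Both groups were J1 embryonic stem cells at passages 7 to 10 on a background labelled Dnmt TKO, a name commonly used for cells without Dnmt1, Dnmt3a and Dnmt3b. One group expressed WT Dnmt3a2 and the other expressed R Dnmt3a2. Each was profiled by ChIP-seq with an antibody to FLAG. WWD, another mutant construct, expressed on the same background, served as a further library, and H3K4me3 ChIP-seq of WT and R cells was used to order regions. No sample is labelled H3K4me1 or H3K4me2, and those regions are known only by the names of their tables. An input sample was not analysed here, so all values include background, and no level below shows enrichment by itself.

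The R column stood for 25254320 reads and the WT column for 24015095, a ratio of 1.05. The tables hold 24302 H3K4me1 regions, 29023 H3K4me2 regions and 32293 H3K4me3 regions, all 100 bp wide except for 2. Together these regions took up 0.253% of all R reads and 0.258% of all WT reads. No R read lay in 85.8% of regions and no WT read in 84.3%. A region with at least 1 read is called occupied. Intervals are 95% intervals for counting error. They do not cover differences between cultures, and those on reads are too narrow wherever reads of 1 region are copies of the same fragment.

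R occupied fewer H3K4me1 regions than WT, while the shares of H3K4me3 regions were nearly the same. At H3K4me1 regions 18.6% were occupied in R (exact 95% interval 18.1 to 19%) and 22.7% in WT (22.2 to 23.3). At H3K4me2 regions the shares were 15.5% in R (15.1 to 16.0) and 16.1% in WT (15.7 to 16.6). At H3K4me3 regions they were 9.79% in R and 9.89% in WT. Both libraries thus had their highest share at H3K4me1 regions and their lowest at H3K4me3 regions, and the fall from one to the other was steeper in WT. For H3K4me1 the number of occupied regions in R over that in WT was 0.816 (0.784 to 0.849). For H3K4me2 it was 0.964 (0.925 to 1.0), and for H3K4me3 0.990 (0.942 to 1.04). These ratios are not scaled by library total. Set against the H3K4me1 ratio, the H3K4me3 ratio was higher by a factor of 1.21 (1.14 to 1.29) and the H3K4me2 ratio by a factor of 1.18 (1.12 to 1.25).

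Occupied regions held more reads in R than in WT, by nearly the same factor in every table. The mean was 5.72 reads in R and 5.03 in WT at H3K4me1 regions, 5.10 and 4.42 at H3K4me2 regions, and 4.81 and 4.24 at H3K4me3 regions. R over WT was 1.14, 1.15 and 1.13 in that order, before scaling by library total. Mean signal per region is the product of the occupied share and the reads per occupied region. Scaled to 10000000 library reads, it was 0.420 in R and 0.477 in WT at H3K4me1 regions, 0.314 and 0.296 at H3K4me2 regions, and 0.186 and 0.174 at H3K4me3 regions. The direction at H3K4me2 and H3K4me3 regions depended on how reads were counted. R over WT was 1.06 and 1.07 from all reads and 0.917 and 0.941 when each occupied region counted once and was scaled by library total. At H3K4me1 regions both ways of counting put R below WT, at 0.881 and 0.776.

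**Figure D1:**
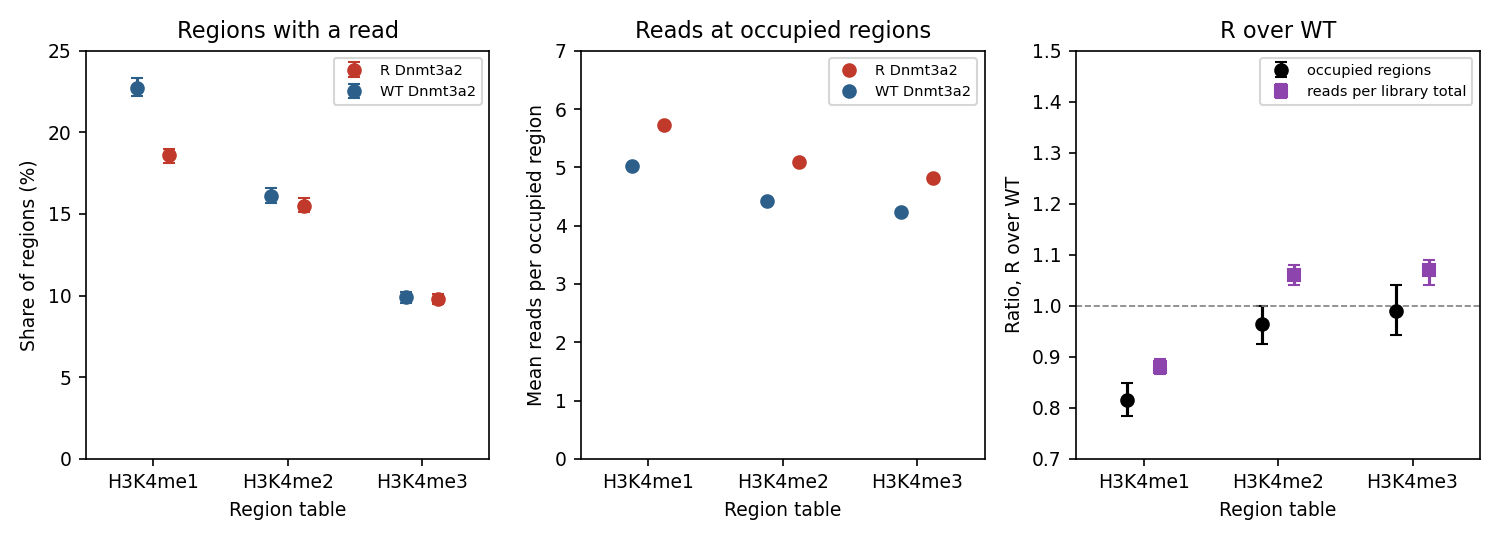
The left panel plots the share of regions with at least 1 Dnmt3a2 read (%), the middle panel the mean reads per occupied region, and the right panel the R over WT ratio of occupied regions (circles, unscaled) and of reads per library total (squares), each by region table. Bars in the left and right panels are 95% counting intervals. R lies below WT in share at H3K4me1 regions, at 18.6% against 22.7%, and above WT in reads per occupied region in the 3 tables.

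R had more regions with many reads than WT in each table, although it had no more occupied regions. Regions with exactly 1 read made up 25.5% of occupied H3K4me3 regions in R and 24.1% in WT. Regions with 10 or more reads made up 11.4% in R (361 regions) and 6.92% in WT (221 regions). The same contrast was 13.8% and 9.41% at H3K4me1 regions, and 13.2% and 7.52% at H3K4me2 regions. The numbers of regions did not fall steadily with read number. In R, 297 H3K4me3 regions held 2 reads, 300 held 3, 314 held 4 and 318 held 5. In WT these numbers were 365, 405, 389 and 360. Past 1 read the largest number, the second peak, thus lay at 5 reads in R and at 3 reads in WT. WWD had no second peak up to 10 reads, with 1561 regions at 2 reads and 671 at 5. At H3K4me1 regions the R counts dipped to 410 regions at 3 reads and rose to 483 at 5 reads, whereas the WT counts fell from 704 at 2 reads to 592 at 5 reads. At H3K4me2 regions R had a small peak at 4 reads (447 regions) and WT at 3 reads (627 regions). Many neighbouring numbers differed little and no interval was computed for them, so the exact place of each peak is uncertain. The labels give 18 cycles of PCR for the libraries. The tables do not count distinct fragments, so more copies of each fragment in R and more fragments at each region in R cannot be told apart.

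**Figure D2:**
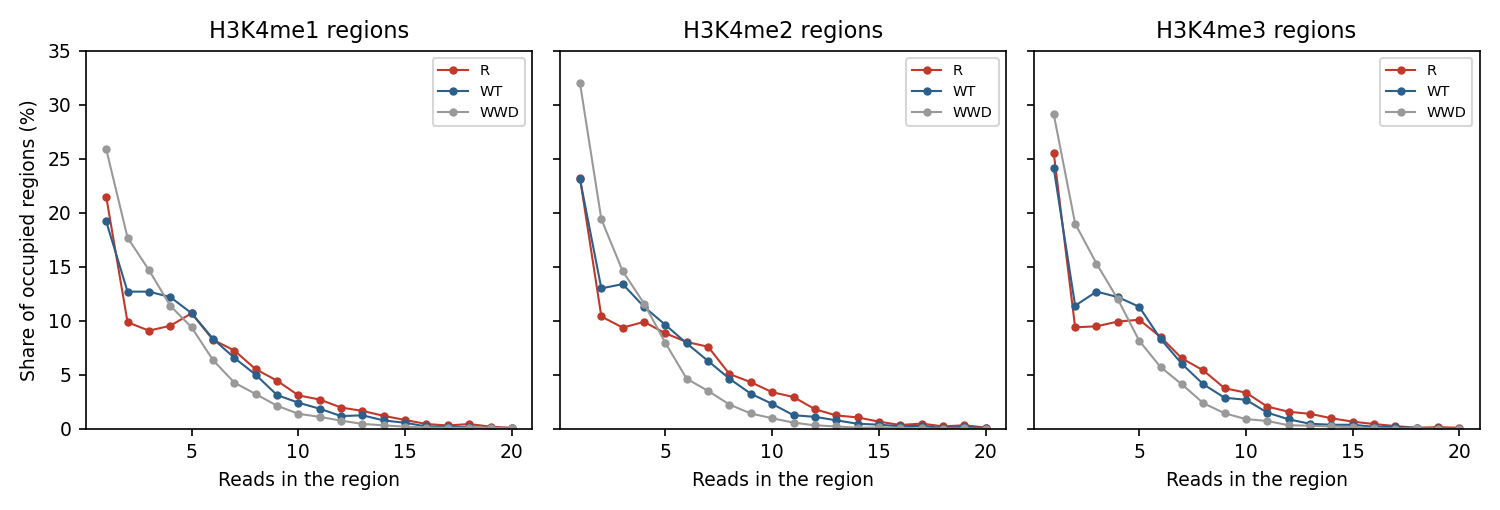
Share of occupied regions (%, y axis) by the number of reads in the region (x axis, 1 to 20) for the R, WT and WWD Dnmt3a2 columns, in each table. Past 1 read the R curve has a hump near 5 reads at H3K4me1 and H3K4me3 regions, the WT curve has one near 3 reads at H3K4me3 regions, and the WWD curve falls with each step up to 10 reads.

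Most regions occupied in R were not occupied in WT, which the low shares of occupied regions alone would give. The overlap was somewhat above the shares over all regions. At H3K4me3 regions 397 regions were occupied in both, 2764 in R alone and 2796 in WT alone. The shared regions were 12.4% of those occupied in WT (11.3 to 13.6) and 12.6% of those occupied in R (11.4 to 13.8), beside R and WT shares of 9.79% and 9.89% over all H3K4me3 regions. At H3K4me2 regions the 937 shared regions were 20.8% of the R regions (19.6 to 22.0), beside 16.1% for WT over all regions. At H3K4me1 regions the 1147 shared regions were 25.4% of the R regions (24.2 to 26.7), beside 22.7%. An R read was thus 1.27, 1.29 and 1.12 times as frequent at WT-occupied regions as over all regions of the H3K4me3, H3K4me2 and H3K4me1 tables. With a minimum of 5 reads in each library, the factors were 1.24, 1.45 and 1.34.

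WWD reads were somewhat more frequent at regions occupied by either of the other constructs, and R-only and WT-only regions were alike in this. At H3K4me3 regions a WWD read lay in 31.3% of R-only regions (29.6 to 33.1), in 31.0% of WT-only regions (29.3 to 32.7), in 38.0% of regions with both and in 24.1% of regions with neither. At H3K4me1 regions these shares were 42.3%, 40.6%, 44.2% and 38.4%.

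Regions next to an occupied region were more often occupied. At 101 to 200 bp this was more so in the same library than in the other, but not at every distance. Regions of the 3 tables whose centres lay 101 to 200 bp apart formed 6693 pairs. The neighbour of an R-occupied region held an R read in 14.8% of cases, whereas the neighbour of a WT-occupied region held an R read in 12.3%. The share for all these neighbours was 10.5%. In WT the neighbour of a WT-occupied region was itself occupied in 14.3% of cases, that of an R-occupied region in 13.0%, and all neighbours in 11.1%. At 300 to 500 bp the R shares were 13.8%, 12.9% and 11.2%. The WT shares did not differ in this way at 200 to 300 bp, with 12.6% beside WT-occupied regions and 12.7% beside R-occupied regions. At 500 to 1000 bp these WT shares were 14.3% and 14.5%. The pairs share libraries and local base composition, and no pair was tested.

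**Figure D3:**
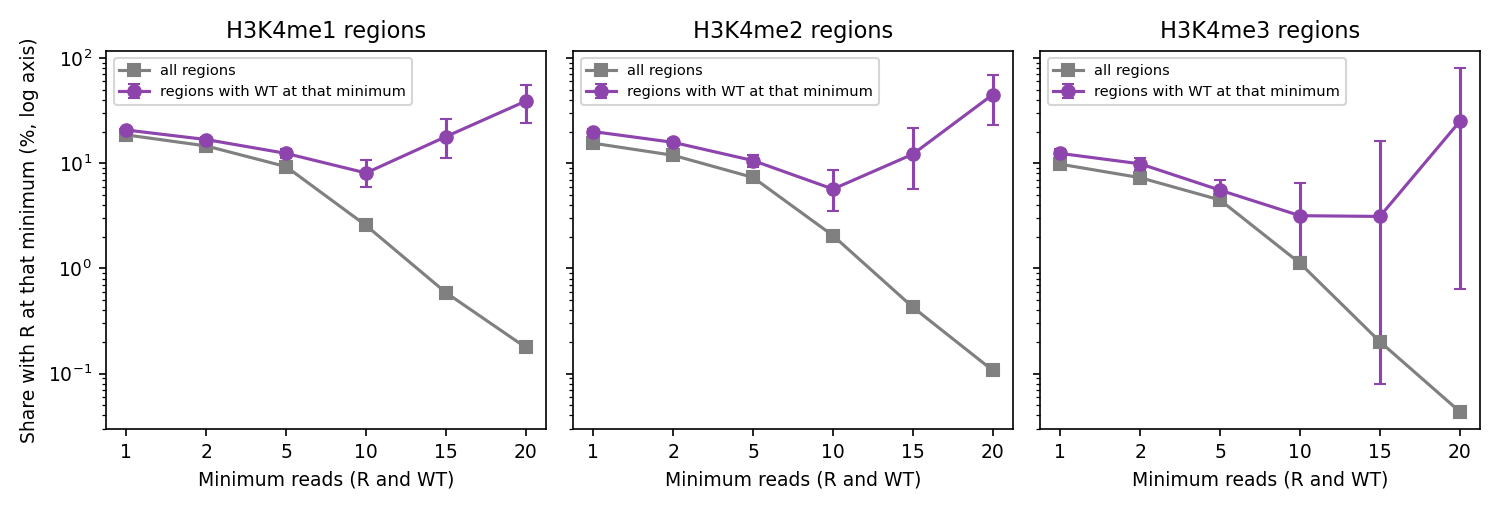
Share of regions with R reads at or above a minimum (%, log y axis), among regions that reach the same minimum in WT (circles, with exact 95% intervals) and among all regions (squares), by that minimum (x axis). The 2 curves run close together up to 5 reads and part from 10 reads upward, where few regions remain.

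The overlap rose at regions with very many reads. At 20 or more reads, 26 of the 65 WT regions and of the 88 R regions were shared, which is 40.0% and 29.5%, beside 0.103% for R over all regions. Of these 26 regions, 16 were in the H3K4me1 table, 9 in the H3K4me2 table and 1 in the H3K4me3 table. By position, 7 lay on chromosome Y, 5 on the mitochondrial sequence and 3 on chromosome X, although these sequences held only 18, 6 and 1957 of the 85618 regions. Another 11 lay on autosomes, 3 of them in the first 5 Mb, on chromosomes 9 and 11. The first 5 Mb of autosomes held 1466 of the 83600 autosomal regions. R over WT within the 26 ranged from 0.557 to 4.20 with a median of 1.07, and 24 were within 2-fold.

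The region with the most reads in both constructs was on chromosome 9, 3015676 to 3015775 (mm9, as all coordinates here), in the H3K4me1 table. Its count was 1180 in R and 1246 in WT, which is 0.901-fold in R after scaling (counting interval 0.831 to 0.976). WWD had 52 reads there. At counts of this size the 2 decimals of the deposited values leave the reads uncertain by about 4.10 in R and 4.33 in WT. On chromosome X an H3K4me1 region at 73844337 to 73844436 had 180, 207 and 71 reads in R, WT and WWD. Near the far end of chromosome 19, at 61300306 to 61300405, an H3K4me1 region had 186, 135 and 28 reads. The H3K4me3 region with the most Dnmt3a2 reads lay close by on the same chromosome, at 61275611 to 61275710, and had 57, 21 and 48 reads. It also held 2734 H3K4me3 reads in R and 2183 in WT cells. R over WT Dnmt3a2 was 2.58 there (1.54 to 4.48). In the H3K4me2 table, the region at 152364630 to 152364729 of chromosome 3 had 63, 64 and 2 reads. WWD reached 20 reads at 9 of the 26 regions, with a range of 0 to 71, from a library smaller than that of R or WT.

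Regions with a large difference were few. Most were empty in the lower library, as were most regions of each table in either library. A region was counted as different at 4-fold or more after scaling, with the lower library set to at least 3 reads, which needs 13 reads in R or 12 in WT. At H3K4me3 regions 126 were higher in R (0.390% of regions) and 77 higher in WT (0.238%). At H3K4me2 regions 199 were higher in R (0.686%) and 151 in WT (0.520%). At H3K4me1 regions 211 were higher in R (0.868%) and 223 in WT (0.918%). The lower library had 0 reads at 116 of the 126 H3K4me3 regions higher in R and at 69 of the 77 higher in WT. Over all H3K4me3 regions, 90.1% held no WT read and 90.2% held no R read. The fold rule itself also asks for few reads in the lower library, so these counts show no trait of the regions. A WWD read was present at 38.9% of the former and 36.4% of the latter, beside 25.5% of all H3K4me3 regions. With a floor of 1 read the direction turned at H3K4me2 and H3K4me3 regions, where 1798 and 1305 regions were then higher in R and 2000 and 1500 higher in WT.

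Among H3K4me3 regions the largest R excess was on chromosome 10, 95025266 to 95025365. It had 27 R reads and 0 WT reads, which is at least 8.56-fold higher in R against the floor of 3 WT reads. Its H3K4me3 reads numbered 89 in R and 21 in WT cells, from libraries of 27424019 and 18801269 reads. Chromosome 9, 78015191 to 78015290, had 25 and 0 Dnmt3a2 reads, with 19 H3K4me3 reads in R and 14 in WT. Chromosome 5, 151239502 to 151239601, had 24 Dnmt3a2 reads in R and 1 in WT, a ratio of 22.8 (3.72 to 939), and 0 H3K4me3 reads in R against 24 in WT. Chromosome 7, 27951905 to 27952004, had 22 and 0, with 65 and 57 H3K4me3 reads. Chromosome 11, 101443643 to 101443742, had 21 and 0, with 18 and 31. The H3K4me3 reads at these 5 regions thus had no shared direction between R and WT cells.

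In the other direction, chromosome 12, 85599675 to 85599774, had 0 Dnmt3a2 reads in R and 23 in WT, at least 8.06-fold lower in R, and held no H3K4me3 read in either. Chromosome 11, 88759183 to 88759282, had 0 and 22, with 11 H3K4me3 reads in R and 16 in WT. Chromosome 10, 79622385 to 79622484, had 0 and 21, with 0 and 15. On chromosome 2, regions 10285016 to 10285115 and 167590423 to 167590522 each had 0 and 19, with 5 H3K4me3 reads or fewer in either library. All H3K4me3 regions past the fold were also counted by quintiles of the H3K4me3 level, taken as the mean scaled reads of WT and R cells. Those higher in WT numbered 31, 13, 12, 13 and 8 from the lowest to the highest quintile, and those higher in R numbered 36, 28, 27, 20 and 15. Both lists were thus most numerous in the lowest quintile, as were occupied regions as a whole. These numbered 840 in R and 945 in WT in the lowest quintile, and 566 and 506 in the highest.

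Examples picked by the same fold rule in the other tables follow. Reads in one construct and few or none in the other are what that rule selects. The H3K4me1 region at 1790693 to 1790792 of chromosome Y had 39 R reads and 3 WT reads, a ratio of 12.4 (3.93 to 62.5). Chromosome 17, 26239142 to 26239241, and chromosome 6, 88004372 to 88004471, each had 28 R reads and 0 WT reads. Chromosome 4, 134375453 to 134375552, had 0 in R and 26 in WT. Among H3K4me2 regions, the one at 28388117 to 28388216 of chromosome 10 had 28 R reads and no WT read. The one at 30498635 to 30498734 of chromosome 5 had no R read and 33 WT reads, at least 11.6-fold lower in R.

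R gained on WT with the H3K4me3 level of the region. The H3K4me3 profiles came from the WT and R samples titled with the number 1, which may not be the samples behind the Dnmt3a2 columns. H3K4me3 regions were sorted into 5 equal groups by the mean scaled H3K4me3 of WT and R cells. In the lowest quintile 13.0% of regions were occupied in R and 14.6% in WT. The next quintiles had 10.3% and 11.2%, then 8.96% and 8.55%, then 7.96% and 7.25%, and the highest quintile had 8.76% in R and 7.83% in WT. By these shares, R was below WT in the lower quintiles and above it from the middle one on. Occupied regions in R over WT rose from 0.889 (0.809 to 0.977) in the lowest quintile to 1.12 (0.990 to 1.26) in the highest, a factor of 1.26 (1.08 to 1.46). By reads per library total, with at most 20 reads counted per region, R over WT rose from 0.937 to 1.25, a factor of 1.34 (1.24 to 1.44), and was already 1.02 in the second quintile (0.974 to 1.08), so the crossing point depended on the way of counting. Reads per occupied region had no such trend, with R over WT between 1.11 and 1.19 in the 5 quintiles. For occupied regions each step was small beside the intervals, and neighbouring quintiles overlapped. By reads the intervals of neighbouring quintiles also overlapped, but those of the lowest 2 only barely (0.897 to 0.979 and 0.974 to 1.08).

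**Figure D4:**
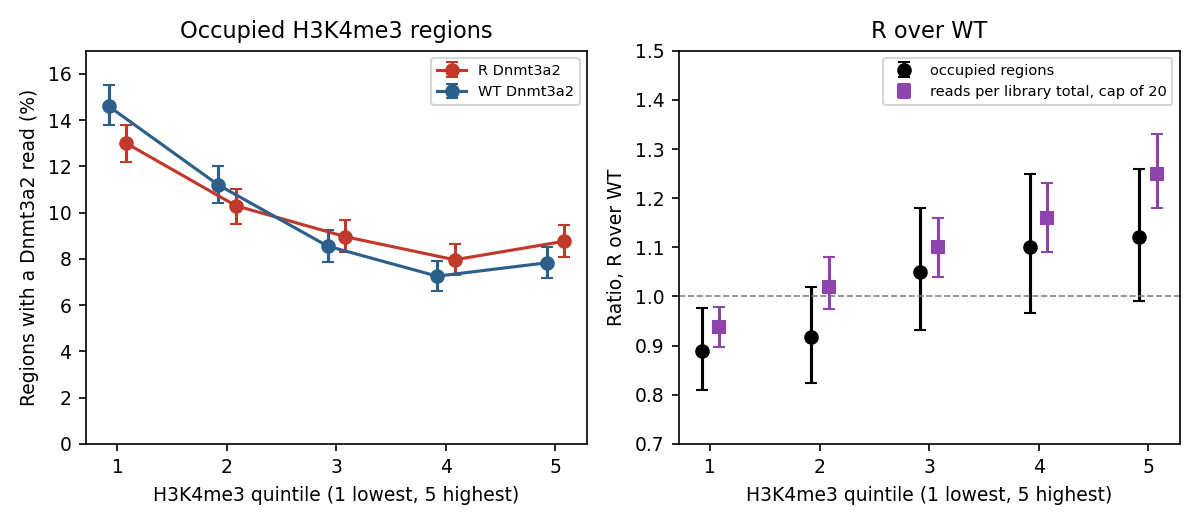
The left panel plots the share of H3K4me3 regions with a Dnmt3a2 read (%) in R and WT by H3K4me3 quintile, and the right panel R over WT for occupied regions (circles, unscaled) and for reads per library total with a cap of 20 (squares). Bars are 95% counting intervals. Occupied R over WT goes from 0.889 in the lowest to 1.12 in the highest quintile, and the curves cross between the second and the middle quintile.

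R over WT of Dnmt3a2 was also set against the difference in H3K4me3 between R and WT cells. Among regions with at least 10 H3K4me3 reads in either library, 8486 were over 2-fold lower in H3K4me3 in R, 15256 were within 2-fold and 3833 were over 2-fold higher. Occupied regions in R over WT numbered 0.978 (0.883 to 1.08), 1.06 (0.978 to 1.14) and 0.967 (0.845 to 1.11) in these groups, whose intervals overlap. At 1912 regions without an H3K4me3 read in either library, the ratio was 0.858 (0.722 to 1.02). At 3879 regions with H3K4me3 reads in WT and none in R, 12.3% were occupied by R Dnmt3a2 and 13.1% by WT Dnmt3a2, a ratio of 0.943 (0.831 to 1.07). At 704 regions with H3K4me3 reads in R and none in WT, the shares were 14.3% and 14.8%, a ratio of 0.971 (0.731 to 1.29). By reads per library total these groups lay further apart, at 0.935 (0.881 to 0.993) and 1.21 (1.06 to 1.37). Reads per occupied region were 4.50 in R and 4.32 in WT in the former, and 5.30 and 4.06 in the latter. By reads per library total, R over WT was 1.07 (1.02 to 1.12) where H3K4me3 was over 2-fold lower in R. It was 1.14 (1.10 to 1.18) within 2-fold and 1.05 (0.986 to 1.12) where H3K4me3 was over 2-fold higher. The over 2-fold lower and higher groups thus did not lie apart in that way. Before scaling, the R-only regions had a median of 41.0 H3K4me3 reads in R cells and 33.0 in WT cells. For WT-only regions these medians were 32.0 and 26.0, and for regions without Dnmt3a2 reads they were 51.0 and 44.0.

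Nearness to H3K4me3 regions went the same way at H3K4me2 regions. Within 500 bp of an H3K4me3 region, 11.9% of 12850 H3K4me2 regions were occupied in R and 11.6% in WT, a ratio of 1.03 (0.956 to 1.10). Of the 16173 farther ones, 18.4% were occupied in R and 19.7% in WT, a ratio of 0.935 (0.889 to 0.983). The near ratio was 1.10 times the far ratio (1.01 to 1.20). At H3K4me1 regions the ratio was 0.95 within 500 bp of an H3K4me3 region (0.727 to 1.24, 671 regions) and 0.813 elsewhere (0.781 to 0.846), a factor of 1.17 whose interval includes 1 (0.900 to 1.52). H3K4me3 regions with no other H3K4me3 region within 2 kb had a ratio of 0.939 (0.872 to 1.01), those with 1 other had 1.05 (0.967 to 1.15), those with 2 others 1.02 (0.902 to 1.15) and those with 3 or more 0.967 (0.781 to 1.20), with no steady order. Whether an H3K4me3 region lay near an H3K4me2 region made little difference, with 0.994 near and 0.987 far. At H3K4me1 regions, near over far from an H3K4me2 region was 1.10 by occupied regions (0.948 to 1.27). By reads with the cap of 20 it was 1.15 (1.08 to 1.24). At H3K4me2 regions, near over far from an H3K4me1 region was 0.999 (0.868 to 1.15) and 1.01 (0.945 to 1.08). By reads, a higher near ratio was thus not limited to nearness to H3K4me3 regions.

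By chromosome, the lower occupancy of R at H3K4me1 regions was spread over the genome. Occupied H3K4me1 regions were fewer in R than in WT on 19 of 19 autosomes, from 0.693 on chromosome 4 to 0.903 on chromosome 13, and the interval lay below 1 on 12 of them. At H3K4me2 regions the ratio ranged from 0.663 on chromosome 19 to 1.15 on chromosome 4, with 12 autosomes below 1 and 7 above. At H3K4me3 regions it ranged from 0.776 on chromosome 4 to 1.17 on chromosome 6, with 11 below 1 and 7 above. The H3K4me1 ratio was below the H3K4me3 ratio on 19 of 19 autosomes. By reads per library total with the cap of 20, R was above WT on 1 autosome at H3K4me1 regions, 12 at H3K4me2 and 16 at H3K4me3 regions. Chromosomes share the libraries and are not replicates. On 8 of 19 autosomes the ratio of occupied regions lay below 1 in each of the 3 tables, and on none did it lie above 1 in all. Chromosome 4 was lowest at H3K4me1 and H3K4me3 regions and highest at H3K4me2 regions. Chromosome 8 had the highest share of occupied H3K4me1 regions of all autosomes in both constructs, 23.0% in R and 27.6% in WT, and its ratio of 0.831 was at the autosomal median of 0.831.

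**Figure D5:**
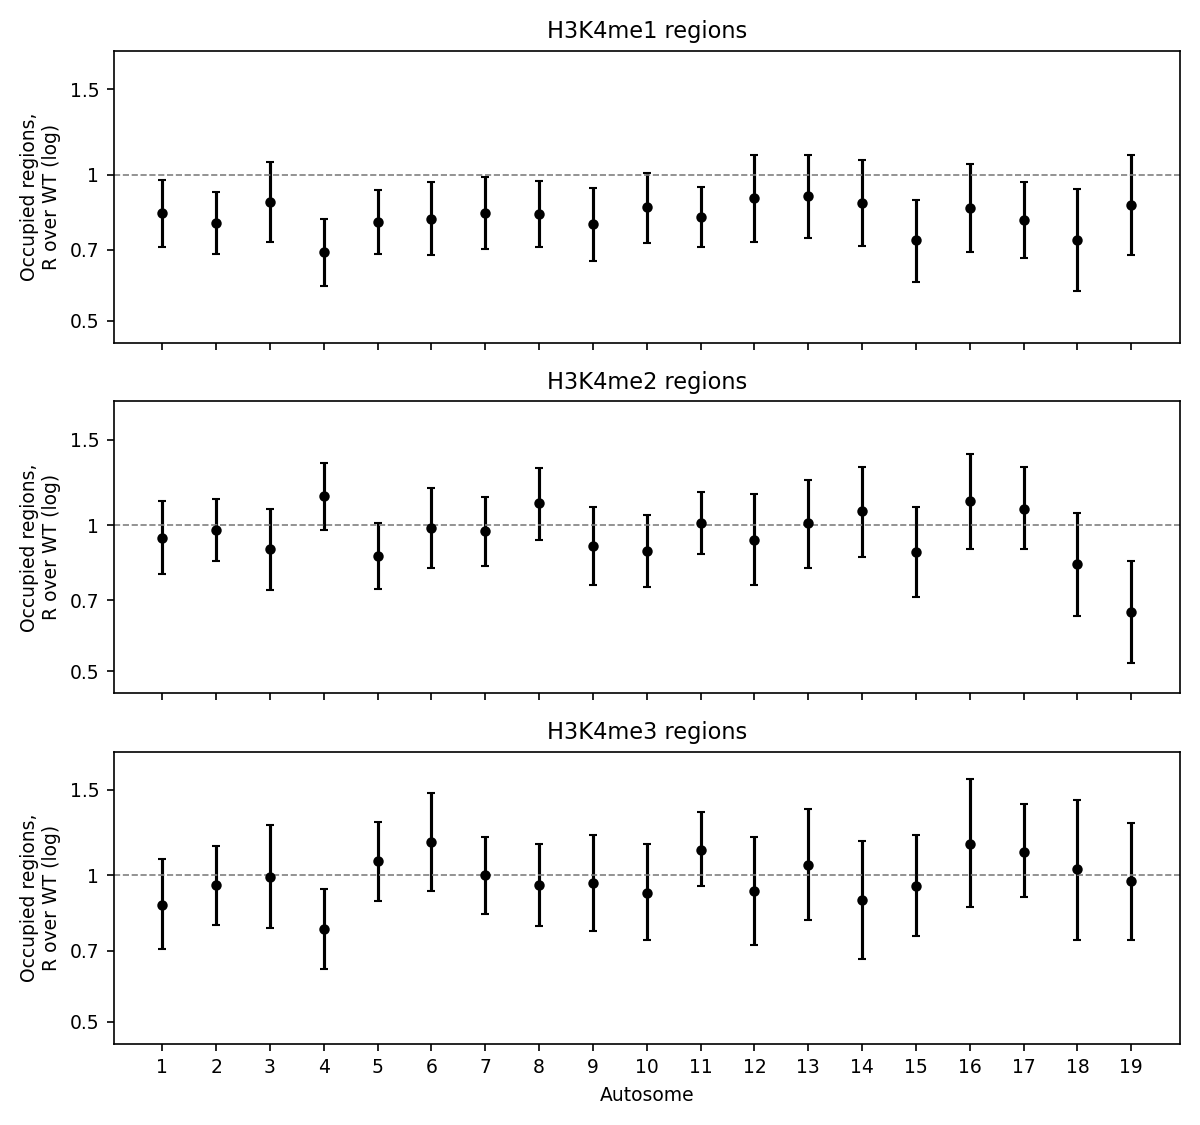
Occupied regions in R over WT (log y axis, unscaled) on each autosome (x axis), in 3 panels by table. Bars are 95% counting intervals. The 19 H3K4me1 ratios lie between 0.693 and 0.903, while H3K4me2 and H3K4me3 ratios scatter on both sides of 1.

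Position along the chromosome was compared at both ends of the autosomes, where R over WT relative to the rest had no direction shared by the 3 tables. In the first 10 Mb of autosomes, where the mouse centromere end lies, occupied regions in R over WT numbered 0.829 for H3K4me3 (0.659 to 1.04), 0.986 for H3K4me2 (0.812 to 1.20) and 0.870 for H3K4me1 (0.721 to 1.05). In the last 5 Mb they numbered 1.13 (0.919 to 1.40), 0.904 (0.752 to 1.09) and 0.781 (0.657 to 0.928). Each interval of the first 10 Mb over the rest, and of the last 5 Mb over the rest, included 1 for occupied regions. By reads per library total with the cap of 20, the first 10 Mb over the rest was 0.854 for H3K4me3 (0.766 to 0.951), 1.18 for H3K4me2 (1.08 to 1.29) and 1.06 for H3K4me1 (0.977 to 1.15). The last 5 Mb over the rest was 1.18 (1.07 to 1.30), 0.941 (0.864 to 1.02) and 1.05 (0.971 to 1.13). Of 418 autosomal windows of 5 Mb with at least 50 regions and 10 occupied ones, the median ratio was 0.910, and the interval lay below 1 in 13 and above 1 in 1. Over all regions the ratio was 0.909, and among so many windows some intervals exclude 1 through counting error alone. The lowest window was on chromosome 18, 40000001 to 45000000, with 6 occupied regions in R and 20 in WT of 95. Chromosome 18, 5000001 to 10000000, and chromosome 9, 10000001 to 15000000, each had 4 in R and 13 in WT. The highest was on chromosome 13, 115000001 to 120000000, with 8 in R and 2 in WT of 61, and an interval from 0.798 to 38.7. Chromosome 12, 5000001 to 10000000, had 14 in R and 6 in WT, and chromosome 14, 100000001 to 105000000, had 11 and 5. The intervals of these 3 high windows included 1. Low and high windows alike are extremes picked from all 418, and their intervals do not allow for that choice.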

How the data were processed

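Alignment used Bowtie and the mm9 build, per the submitters' processing notes. The version, read filters and region calling are not given in these sources. The authors deposited log2 values per region, and a total and an effective total stand in each column's name, per the file headers. From the values and headers, not from a stated method, the form was inferred to be log2 of 1 plus a factor (effective total over total) times whole reads plus an amount below 1, rounded to 2 decimals. Whole reads were recovered by inverting this form and rounding down, a step tested on simulated data, and scaled by library total. Reads were capped at 20 per region where stated. Ratios have exact conditional binomial intervals and shares exact Clopper-Pearson intervals. Ratios of ratios have log-scale counting intervals. All cover counting error only. Dnmt3a2 columns matched a construct but no single sample. A further 2 columns matched no listed sample and were not used. Regions carry no names of genes, and no annotation of mm9 was used, so regions are given by position.

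Named regions were the 5 largest folds each way per table against a floor of 3 reads, the 3 with most reads and the 3 highest in both constructs, and the 3 highest and 3 lowest windows of 5 Mb. Examples of these are given. The 26 regions with 20 or more reads in both, the other chromosomes singled out and the groups by H3K4me3 change were chosen after their values were seen. The comparison and these rules were chosen with earlier results of these data known. Computations used scipy 1.17.1, pandas 2.3.3 and numpy 2.4.6 under Python 3.11.15.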

Additional observations from a re-analysis of the deposited data

How the results depend on the processing

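The 23 results were recomputed in 85 alternatives. In 41 the value lay inside the main interval, or a count within 1.5 times the main count. In 40 it lay outside, and in 4 a ratio whose main interval excluded 1 crossed 1. No paired analysis was possible because each table had 1 Dnmt3a2 column per construct, and for the same reason no library could be left out. Alternatives that left out a region, chromosome 8 or regions without H3K4me3 reads were added after seeing the data. Counting each occupied region once gave R over WT of 0.776, 0.917 and 0.941 at H3K4me1, H3K4me2 and H3K4me3 regions, with the latter 2 turned from 1.06 and 1.07. The median difference of deposited log2 values was -0.03, -0.01 and -0.02, again turned in the latter 2, and reads before rounding down gave 0.899, 1.02 and 1.01. Both carry the added amount below 1 read. The median difference rests largely on regions empty in both libraries, where this amount is multiplied by a factor that is smaller for the larger R library. Its sign therefore cannot show a difference in occupancy, although its 2 turns are counted among the 4. Regions with reads in at least 2 of 3 columns gave 0.932, 1.03 and 1.11, and the cap of 20 gave 0.865 at H3K4me1 regions. With 5 reads as the minimum for an occupied region, R over WT was 0.945, 1.16 and 1.14 in the same order, the latter 2 moving from 0.964 and 0.990 to above 1. Co-occupancy over all regions was 1.34 and 1.45 at 5 reads at H3K4me1 and H3K4me2 regions, and 3.15, 2.77 and 2.83 at 10 reads. Autosomes above 1 by reads with the cap numbered 1, 12 and 16, and by occupied regions scaled by total 0, 5 and 6. The H3K4me3 quintile factor was 1.24 with quintiles by WT H3K4me3 alone and 1.39 without chromosome 8, and 1.02 replaced 1.18 for the first 10 Mb at H3K4me2 regions when each occupied region counted once. Regions past 4-fold and higher in R numbered 1796, 1798 and 1305 with a floor of 1 read and 15, 10 and 5 with a floor of 5, at H3K4me1, H3K4me2 and H3K4me3 regions. Those higher in WT numbered 2543, 2000 and 1500, and 19, 9 and 3. Past 2-fold there were 1214, 1238 and 821 higher in R and 1579, 1238 and 848 higher in WT. With a floor of 1 read WT had more such regions in each table, while with the floor of 3 R had more at H3K4me2 and H3K4me3 regions. Most regions held 0 reads in either library, which limits what a single region can show.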

Other observations

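The mitochondrial sequence and chromosome Y had reads at most of their few regions in both constructs. All 6 mitochondrial regions, which belong to the H3K4me2 table, were occupied in R and WT, with 229 and 216 reads in all and between 14 and 57 in R and 6 and 84 in WT. WWD had 107 reads there. On chromosome Y 13 of 16 H3K4me1 regions were occupied in R and 13 in WT, with 426 and 347 reads, against 61 in WWD. Chromosome X held fewer occupied regions than autosomes in both constructs, at 5.24% of 1012 H3K4me3 regions in R and 4.35% in WT, and its occupied regions in R over WT numbered 1.20 for H3K4me3 (0.792 to 1.84), 0.939 for H3K4me2 (0.614 to 1.43), 0.722 for H3K4me1 (0.419 to 1.23) and 0.969 over the 3 tables (0.752 to 1.25). The 37 regions on unplaced sequences held no read in R or WT, which allows a share of occupied regions of up to 8.11%.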
